A study of Mus musculus with 11 samples.

Results

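The 10 mature miRNAs from 6 hairpins on the Meg3 and Rian side of the imprinted Dlk1-Dio3 region are described here across DGCR8 knockout, wild-type and E518K mouse embryonic stem cells. They were chosen by their names, and no threshold on their values was used, although results of these data were known: both arms of miR-337, miR-540, miR-665 and miR-673, and the 3p arms of miR-341 and miR-370. These are 10 of the 1966 mature miRNAs listed, and 9 of the 10 passed the filter on low counts that left 730 miRNAs to test.

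Small RNA was sequenced from 11 libraries of feeder-free mouse embryonic stem cells grown with LIF and the 2i inhibitors, all with the strain label NBA1-19349, Novus Biochemicals. The 3 knockout (KO) libraries came from untransfected cells of genotype DGCR8 -/-. The other 8 libraries came from cells that had received pCMV(CAT)-SB100X together with an inducible vector for FLAG-tagged DGCR8. That vector was pSB ET iE-FlagDGCR8-wt in cells labelled DGCR8 wt/wt and pSB ET iE-FlagDGCR8-E518K in cells labelled DGCR8 E518K/E518K. Induced cells received 300 ng/mL doxycycline for 48 h: wild-type clones 10, 12 and 16, E518K clones 8, 13 and 15, and the KO cells. Wild-type clone 10 and E518K clone 8 were also sequenced untreated, 1 library each, to show leaky expression. The design text speaks of 3 independent clones per condition, whereas the 3 KO titles name the same clone, 261, so the spread between KO libraries may be technical.

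DGCR8 binds RNA and works with the nuclease DROSHA in the Microprocessor, which cuts hairpins out of long primary transcripts. DICER then cuts the hairpin into a duplex, and one arm (5p or 3p) is usually kept by an Argonaute protein, which finds target mRNAs mainly through the seed near the miRNA's 5′ end. E518K, which replaces a glutamate of DGCR8 by a lysine, is known from Wilms tumours, a childhood kidney cancer. In the Dlk1-Dio3 region the maternal chromosome expresses the long noncoding RNAs Meg3, Rtl1-antisense, Rian and Mirg, which host many miRNAs and small nucleolar RNAs. Expression of this region is known to vary between pluripotent mouse cell lines.

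The mature sequences of the 10 miRNAs are shown because they make up the whole set and carried 10 different seeds. They are printed 5′ to 3′ from RefSeq (build GRCm38.p6), with the seed, bases 2 to 8, in capitals, in the order of their hairpins along the chromosome. All 10 were found there, each at 1 place.
mmu-miR-673-5p: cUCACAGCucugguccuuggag
mmu-miR-673-3p: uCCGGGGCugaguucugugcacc
mmu-miR-337-5p: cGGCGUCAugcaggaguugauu
mmu-miR-337-3p: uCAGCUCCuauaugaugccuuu
mmu-miR-540-5p: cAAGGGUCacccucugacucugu
mmu-miR-540-3p: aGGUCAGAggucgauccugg
mmu-miR-665-5p: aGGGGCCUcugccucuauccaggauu
mmu-miR-665-3p: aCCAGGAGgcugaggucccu
mmu-miR-341-3p: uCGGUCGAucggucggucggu
mmu-miR-370-3p: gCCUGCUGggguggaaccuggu
The seed of mmu-miR-540-3p was shared with mmu-miR-6915-5p and that of mmu-miR-673-5p with mmu-miR-6985-3p. The other 8 seeds were found in no other mouse miRNA listed there.

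All 6 hairpins lie on the plus strand of chromosome 12 (GRCm38.p6). Mir673 (chr12:109571990-109572080) starts 264 bases past the annotated end of Meg3. Mir337 (chr12:109585789-109585885), Mir540 (chr12:109586080-109586146) and Mir665 (chr12:109586314-109586407) follow one another between Meg3 and Rtl1. GENCODE vM21 gives these 4 hairpins no host gene. Mir341 (chr12:109611500-109611595) and Mir370 (chr12:109618258-109618336) lie in introns of Rian, on its strand. The predicted fold of the annotated hairpins was between -49.4 kcal/mol for Mir337 and -40.9 kcal/mol for Mir540, against a median of -32.1 kcal/mol over 997 mouse hairpins. Their lengths were 67 to 97 bases, with a median of 79 over the same 997.

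The miR-337 hairpin has another on the opposite strand, Mir3544 (chr12:109585813-109585873). The mature sequences of the pair are shown with the complementary bases in capitals.
mmu-miR-337-5p: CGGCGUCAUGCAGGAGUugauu
mmu-miR-3544-3p: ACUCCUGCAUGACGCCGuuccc
mmu-miR-337-3p: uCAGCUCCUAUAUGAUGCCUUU
mmu-miR-3544-5p: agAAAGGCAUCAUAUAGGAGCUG
The overlaps span 17 and 21 bases. In 11 of 11 libraries the count of mmu-miR-337-5p equalled that of mmu-miR-3544-3p, and that of mmu-miR-337-3p equalled that of mmu-miR-3544-5p. The strand of these reads cannot be told from the counts, and the values below are given under the miR-337 names.

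Total miRNA counts were 166676 to 208846 in KO, 1050564 to 1797240 in induced E518K, 3394216 to 6128734 in induced wild type, 1421247 in wild type without doxycycline and 264507 in E518K without it. Of counts from 1 to 40, 90.3% were even, as if a small RNA usually added 2 to the count. The limit for a count of 0 was therefore set at 3 small RNAs, or 6 counts per library. Levels are given in CPM, counts relative to the library total after TMM scaling, and on this scale that limit was 12.8 to 18.3 in KO, 3.93 to 6.05 in induced E518K and 1.11 to 2.94 in induced wild type. A list of 20 arms typical of embryonic stem cells held 34.4% to 39.6% of the counts in induced wild type, 15.7% to 18.0% in induced E518K and 0.127% to 0.370% in KO. A list of 10 fibroblast or feeder arms held 0.247% to 0.357%, 0.194% to 0.276% and 1.30% to 1.90% in the same order, and a list of 7 neural arms held 0.227% to 0.470%, 0.108% to 0.162% and 0.0196% to 0.0252%. The part of these lists in the results was not tested.

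Between induced wild-type and induced E518K cells, all 9 tested members fell, and none rose. The loss ran from 2.10-fold for mmu-miR-665-3p to 55.4-fold for mmu-miR-341-3p and a fitted 61.3-fold for the rarer mmu-miR-673-3p. Over all 730 miRNAs tested, 35.3% were lower in E518K by the same call (edgeR's quasi-likelihood test, Benjamini-Hochberg adjusted p under 0.05), and the median log2 fold change was -0.14, against -2.70 over the 9 members. In each of the 9 members every E518K library lay below every wild-type library, which held for 38.8% of the tested miRNAs. mmu-miR-540-5p and mmu-miR-337-3p passed the filter through induced wild type alone, with 119 and 140 counts there and 2 and 12 in induced E518K. Such arms could hardly be called anything but lower, so their place among the 9 is no separate support. The size of these changes depended on the libraries and the scale. Without wild-type clone 16, 6 members were called lower, at log2 fold changes of -5.19 to -1.21, beside 164 of all 688 miRNAs tested. With scaling on arms that do not need DGCR8 all 9 were called, at -8.70 to -3.86, beside 498 of all 730. Summed over the 10 members, the level was 5174 to 6691 CPM in wild type and 366 to 848 CPM in E518K. Most of the wild-type sum, 6138 CPM on average, came from mmu-miR-341-3p with 3389 CPM and mmu-miR-370-3p with 1659 CPM. Values below that use the members' sum therefore follow mainly these 2 arms. Levels of different miRNAs also carry the unequal ligation of different sequences, so levels are compared here mainly between libraries. In bulk RNA, fewer cells holding a miRNA and less of it per cell cannot be told apart.

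**Figure D1:**
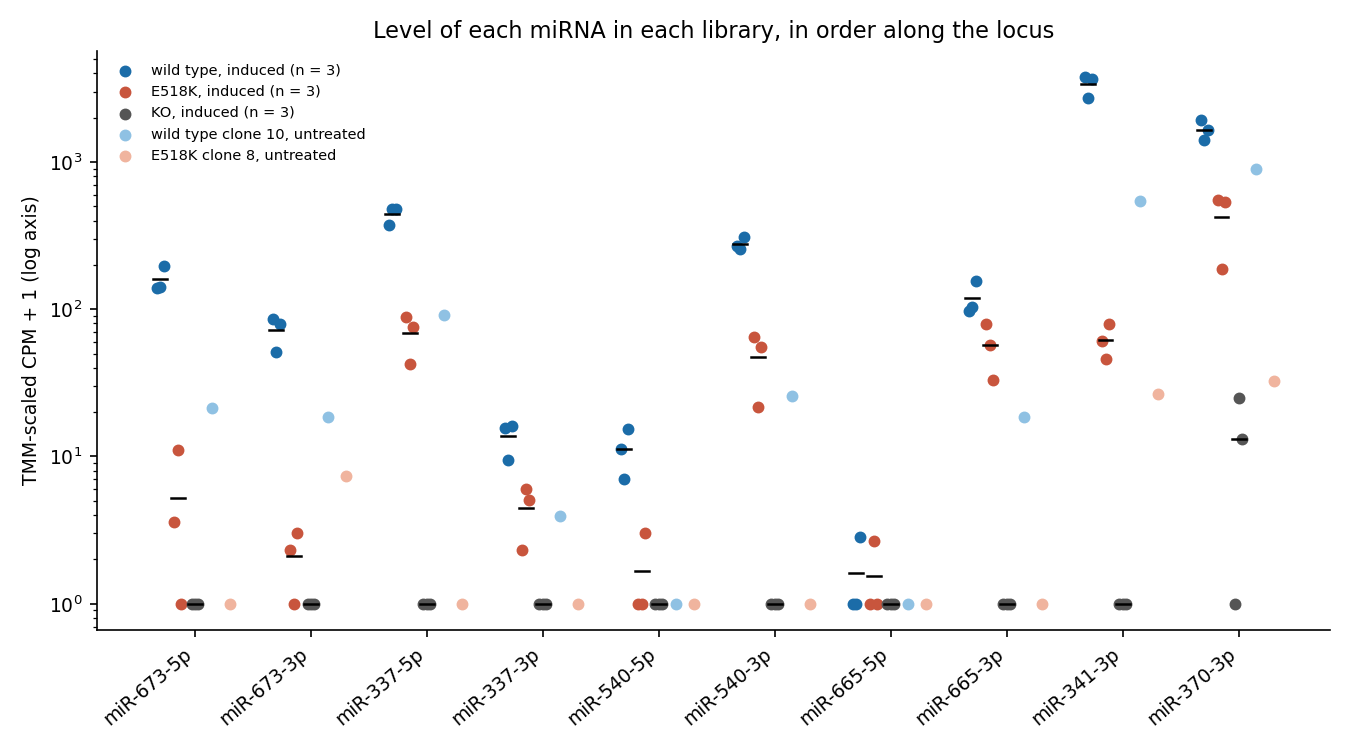
TMM-scaled CPM + 1 (log axis) of each of the 10 miRNAs in each of 11 libraries, ordered along the locus. Points are libraries and bars are means of 3 libraries. A point at 1 had a count of 0. Induced wild type lies above induced E518K in 9 of the 10, and KO lies at 0 except for mmu-miR-370-3p.

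mmu-miR-341-3p, from a Rian intron, was the most abundant of the 10 in wild type, with 3769, 2734 and 3664 CPM in clones 10, 12 and 16. In E518K clones 8, 13 and 15 it stood at 60.2, 44.9 and 78.6 CPM. The groups lay far apart: the mean fell from 3389 ± 569 (SD, n = 3) to 61.2 ± 16.9 (SD, n = 3), or 1.81% of wild type. The log2 fold change was -5.79 ± 0.46 (SE, adjusted p = 2.27e-30, edgeR). The partner arm mmu-miR-341-5p averaged 68.0 CPM in wild type, and E518K held 2 counts of it in clone 8 and 0 in the other clones.

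mmu-miR-370-3p, also intronic in Rian and known for work on lipid metabolism in liver cells, had 1939, 1400 and 1639 CPM in wild type. The E518K clones gave 553, 186 and 532 CPM, with clone 13 lowest. The mean fell from 1659 ± 270 (SD, n = 3) to 423.5 ± 206.4 (SD, n = 3), or 25.5%, a log2 fold change of -1.97 ± 0.40 (SE, adjusted p = 3.21e-06, edgeR). In E518K mmu-miR-370-3p was thus the most abundant member, a place that mmu-miR-341-3p held in wild type. Its partner arm mmu-miR-370-5p fell by 2.55 ± 0.52 (SE) on the log2 scale, from 85.1 to 14.2 CPM.

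The 2 arms of miR-673, whose hairpin sits just past Meg3, were nearly lost. mmu-miR-673-5p had 138, 140 and 197 CPM in wild type, and 2.62, 9.98 and 0 in E518K. Its mean fell from 158 ± 33.6 to 4.20 ± 5.18 CPM (SD, n = 3 each), a log2 fold change of -5.18 ± 0.60 (SE, adjusted p = 1.41e-15, edgeR). mmu-miR-673-3p had 85.4, 50.1 and 77.9 CPM in wild type, and 1.31, 0 and 2.02 in E518K, where the 3 libraries held 4 counts in all. Its log2 fold change was -5.94 ± 0.73 (SE, adjusted p = 2.48e-14, edgeR). With so few counts, the E518K level from pooled counts was 1.52% of wild type with a counting interval (95%, exact) of 0.183% to 5.52%. By mean CPM it was 1.56%.

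mmu-miR-337-5p, the stronger arm of its hairpin, had 372.53, 478.9 and 477.4 CPM in wild type and 87.7, 41.6 and 74.6 CPM in E518K. The groups did not overlap, and the mean fell from 443 ± 61.0 to 68.0 ± 23.8 CPM (SD, n = 3 each), or 15.3%. The log2 fold change was -2.70 ± 0.43 (SE, adjusted p = 5.35e-09, edgeR). mmu-miR-337-3p was scarce, with 14.7, 8.50 and 15.2 CPM in wild type and 1.31, 4.99 and 4.03 in E518K. Its fall by 1.92 ± 0.75 (SE) on the log2 scale (adjusted p = 0.0181, edgeR) rests on 2 to 6 counts per E518K library. It missed the threshold with total counts as the scale (edgeR, adjusted p = 0.118) and with DESeq2 (adjusted p = 0.0963). Leaving out E518K clone 8 or any 1 of the wild-type clones also ended the call (edgeR, adjusted p = 0.0555 to 0.414).

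For miR-540 the 3p arm was the stronger. mmu-miR-540-3p had 266, 255 and 306 CPM in wild type and 63.5, 20.8 and 54.4 in E518K. Again no E518K library reached the wild-type range, and the mean fell from 276 ± 27.2 to 46.2 ± 22.5 CPM (SD, n = 3 each). The log2 fold change was -2.57 ± 0.46 (SE, adjusted p = 1.62e-07, edgeR), close to that of mmu-miR-337-5p from the next hairpin. mmu-miR-540-5p had 10.3, 6.07 and 14.5 CPM in wild type and, in E518K, 2 counts in clone 15 and 0 in the other clones. It fell by 4.03 ± 1.09 (SE) on the log2 scale (adjusted p = 0.000575, edgeR), but the call was lost with DESeq2 (adjusted p = 0.118). From pooled counts, with 2 counts taken as 1 small RNA, the ratio of E518K to wild type was 4.80% with a counting interval of 0.120% to 27.8%. By mean CPM it was 6.53%.

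mmu-miR-665-3p showed the smallest loss. Wild type had 96.7, 102 and 154.4 CPM, and E518K had 78.5, 56.6 and 32.2 CPM, so that E518K clone 8 came close to wild-type clone 10. The mean fell from 118 ± 32.0 to 55.8 ± 23.2 CPM (SD, n = 3 each), a log2 fold change of -1.07 ± 0.47 (SE, adjusted p = 0.0367, edgeR). This call did not hold under several settings: the value was -0.72 with total counts (edgeR, adjusted p = 0.279), -0.18 without wild-type clone 16 (edgeR, adjusted p = 0.809) and -0.76 without E518K clone 15 (edgeR, adjusted p = 0.203). It also missed the threshold with the authors' scaling (edgeR, adjusted p = 0.0548) and without E518K clone 8 or 13 (edgeR, adjusted p = 0.0779 and 0.0708). mmu-miR-665-5p was too rare to test, with 10 counts in wild-type clone 16, 2 counts in E518K clone 13 and 0 elsewhere.

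**Figure D2:**
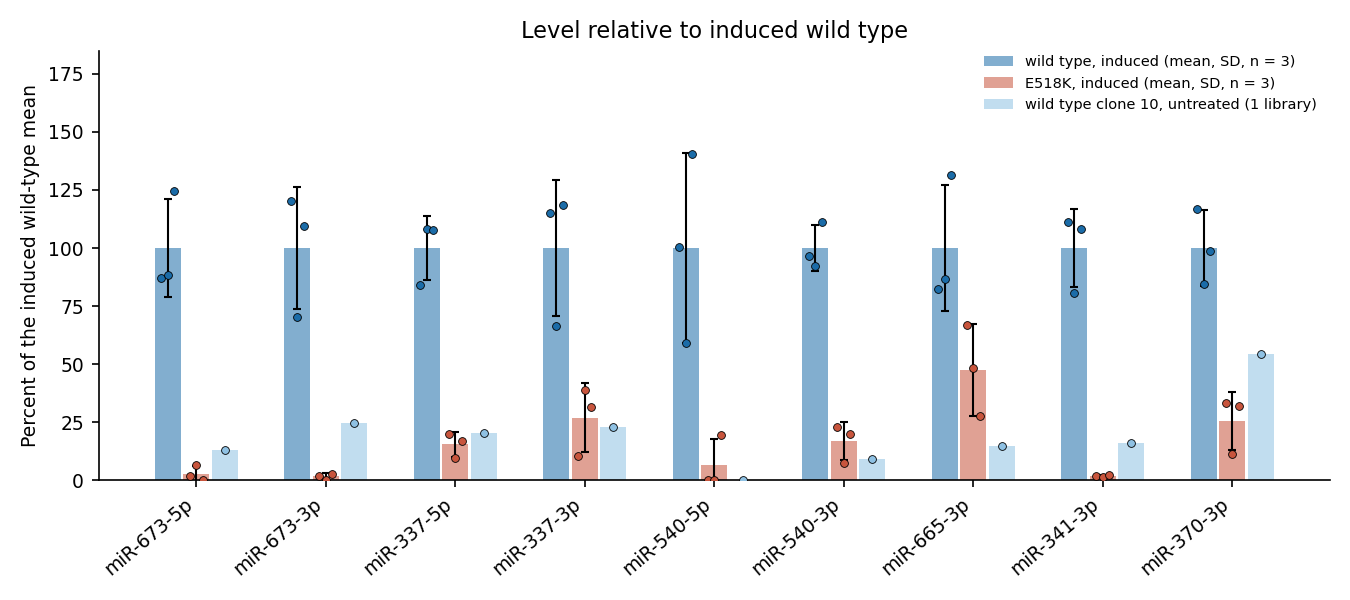
Level of 9 miRNAs as a percent of the induced wild-type mean. Bars are means with SD (n = 3) for induced wild type and E518K and 1 library for untreated wild-type clone 10; points are libraries. mmu-miR-673-5p, mmu-miR-673-3p and mmu-miR-341-3p lie at 1.56% to 2.65% in E518K, and mmu-miR-665-3p at 47.4%.

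The members thus fell by unequal amounts. To compare them without any scaling between libraries, each was divided by mmu-miR-370-3p in the same library, a choice made after the values had been seen. The log2 ratio of mmu-miR-341-3p to mmu-miR-370-3p was 0.96, 0.97 and 1.16 in wild-type clones 10, 12 and 16. It was -3.20, -2.05 and -2.76 in E518K clones 8, 13 and 15. The 2 Rian-intron miRNAs had changed their order in every E518K clone, with a mean difference of -3.70, the groups not overlapping. An exact two-sided permutation test gave p = 0.1, the smallest that 3 against 3 allows (0.25 after Benjamini-Hochberg adjustment over 5 ratios).

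The other tested ratios differed less. mmu-miR-540-3p went from -2.58 ± 0.25 to -3.19 ± 0.09 (SD, n = 3 each, exact permutation p = 0.1, adjusted 0.25), with groups that did not overlap. For mmu-miR-337-5p the means were -1.90 and -2.55 (exact permutation p = 0.2), for mmu-miR-665-3p -3.84 and -2.86 (exact permutation p = 0.3), and for mmu-miR-337-3p -7.05 and -6.99 (exact permutation p = 1). In these 3 the groups overlapped. With 3 against 3 libraries the test could not resolve a different fall from that of mmu-miR-370-3p for any of the 5 ratios. The difference of mmu-miR-665-3p, 0.98, was smaller than the SD of its E518K libraries, 1.17. Members without counts in some of these libraries were not tested. mmu-miR-673-3p had ratios of -4.80 to -4.40 in wild type, and -8.72 and -8.04 in E518K clones 8 and 15. mmu-miR-673-5p had -3.81 to -3.06 in wild type, and -7.72 and -4.22 in E518K clones 8 and 13. mmu-miR-540-5p had -7.85 to -6.82 in wild type and -8.04 in E518K clone 15. These E518K ratios rest on 2 to 12 counts of the arm.

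**Figure D3:**
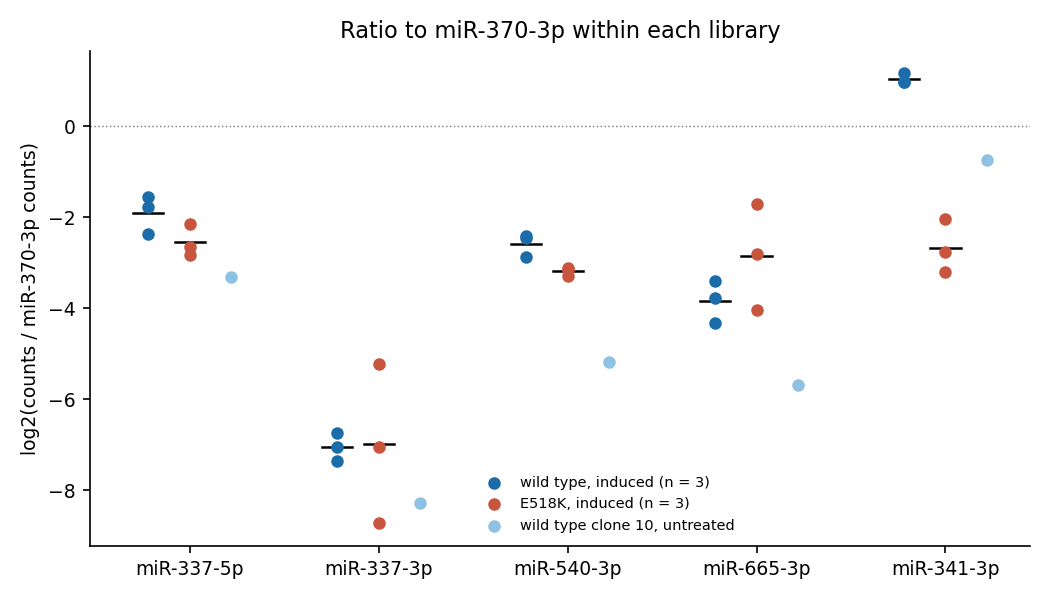
log2 of each miRNA's counts over the counts of mmu-miR-370-3p in the same library, for 5 miRNAs. Points are libraries and bars are means of 3. For mmu-miR-341-3p induced wild type lies at 0.96 to 1.16 and induced E518K at -3.20 to -2.05; the untreated wild-type library lies between them at -0.74.

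The share of each hairpin taken by its 5p arm was compared for hairpins with both arms in the set and at least 20 counts in every E518K library. In miR-337 the 5p arm took 97.1% ± 1.04 of the wild-type counts and 94.2% ± 4.66 of the E518K counts (SD, n = 3 each, exact permutation p = 0.5). miR-540 gave 3.52% ± 1.10 and 1.19% ± 2.06 (exact permutation p = 0.2), and miR-665 gave 0.395% ± 0.685 and 0.952% ± 1.65 (exact permutation p = 1). The strong arm of each of these hairpins was the same in both groups, with adjusted p of 0.6 to 1 over the 3 hairpins. With 3 against 3 libraries the exact permutation p cannot go below 0.1, so the test could not have called a shift. miR-673 was the most even in wild type, at 61.8%, 73.6% and 71.7% 5p, while its 6, 12 and 2 counts in E518K left its share undetermined. miR-370 had 4.70%, 4.93% and 5.05% 5p in wild type and 4.09%, 2.62% and 2.58% in E518K, which do not overlap and were not tested.

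In KO cells the members were at or near 0. Of the 10, 9 had a count of 0 in all 3 KO libraries; this was so for 8 of the 9 tested members and for 31.2% of all tested miRNAs. Only mmu-miR-370-3p was seen, with 0, 8 and 4 counts (0, 24.0 and 12.2 CPM). All 9 tested members were lower in KO than in the induced wild-type cells, against 58.4% of the tested miRNAs. Among the 9 were mmu-miR-540-5p and mmu-miR-337-3p, which passed the filter through induced wild type alone. The KO libraries all name the same clone, so SE and p-values against KO, here and for E518K, do not measure the spread between KO clones. mmu-miR-370-3p fell by 7.22 ± 0.56 (SE) on the log2 scale (adjusted p = 4.74e-32, edgeR). This size moved with the scale, from -5.64 with total counts to -12.43 with scaling on DGCR8-independent arms, and the bounds that follow hold for TMM scaling. Against the limit of 6 counts per KO library, mmu-miR-341-3p was at least 207-fold higher in wild type, mmu-miR-337-5p at least 27.0-fold and mmu-miR-540-3p at least 16.8-fold. mmu-miR-673-5p was at least 9.67-fold, mmu-miR-665-3p at least 7.18-fold and mmu-miR-673-3p at least 4.34-fold higher. For mmu-miR-337-3p (adjusted p = 0.000531, edgeR) and mmu-miR-540-5p (adjusted p = 0.00243, edgeR) the wild-type level itself lay at or under what 0 counts allow in KO, so no fold is given. The KO call of mmu-miR-540-5p was lost with total counts (edgeR, adjusted p = 0.0573) and with DESeq2 (adjusted p = 0.0928).

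Induced E518K cells held more of these miRNAs than KO cells: 6 of 9 tested members were higher, against 41.9% of the tested miRNAs. mmu-miR-370-3p was 38.0-fold higher (log2 fold change 5.25 ± 0.54, adjusted p = 1.32e-19, edgeR). The log2 value was 3.95 with total counts, 6.93 with the authors' scaling and 7.71 with scaling on DGCR8-independent arms. Against the KO limit, mmu-miR-337-5p was at least 4.15-fold higher (edgeR, adjusted p = 7.57e-13) and mmu-miR-341-3p at least 3.74-fold (7.14e-13). mmu-miR-665-3p was at least 3.41-fold higher (edgeR, adjusted p = 3.21e-10) and mmu-miR-540-3p at least 2.82-fold (6.92e-10). mmu-miR-673-5p passed (edgeR, adjusted p = 0.0218), but its 4.20 CPM in E518K lay under the KO limit. That call was lost with total counts (edgeR, adjusted p = 0.112), with DESeq2 (adjusted p = 0.0719) and when KO library 2 or 3 or E518K clone 8 or 13 was left out (edgeR, adjusted p = 0.0634 to 0.283). The other 3 members did not pass (edgeR): mmu-miR-337-3p with an adjusted p of 0.0634, mmu-miR-540-5p with 0.453 and mmu-miR-673-3p with 0.249. Under other settings 2 of the 3 passed: mmu-miR-337-3p with scaling on DGCR8-independent arms (edgeR, adjusted p = 0.000181), with the authors' scaling (edgeR, adjusted p = 0.00316) and without E518K clone 15 (edgeR, adjusted p = 0.0286), and mmu-miR-673-3p with scaling on DGCR8-independent arms (edgeR, adjusted p = 0.0244). The comparisons of E518K and of KO with wild type share the wild-type libraries, and the 2 with KO share the KO libraries.

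As a share of all miRNA counts the 10 members made up 0.425% ± 0.160 in induced wild type, 0.0562% ± 0.0152 in induced E518K and 0.00239% ± 0.00240 in KO (SD, n = 3 each). Each of the last 2 groups lay wholly below wild type (exact two-sided permutation p = 0.1, the smallest possible). With the embryonic stem cell cluster miR-290/miR-295 left out of the total, the shares were 0.935%, 0.0798% and 0.00240%.

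Without doxycycline, wild-type clone 10 held 8 of the 10 members, at lower levels than after induction. Untreated against induced, mmu-miR-370-3p had 901 and 1939 CPM (46.5%), mmu-miR-341-3p 541.2 and 3769 CPM (14.4%) and mmu-miR-337-5p 90.4 and 372.53 CPM (24.3%). mmu-miR-673-3p stood at 20.5%, mmu-miR-337-3p at 19.8%, mmu-miR-665-3p at 18.1%, mmu-miR-673-5p at 14.8% and mmu-miR-540-3p at 9.32% of the induced level. mmu-miR-540-5p had 0 and 21 counts. In this 1 pair of libraries every member with counts was higher after induction, whereas the median log2 difference of the tested miRNAs was 0.00 and 49.04% of them lay above 0. The members' share of the counts in the untreated library was 0.0780% (95% exact binomial interval 0.0716% to 0.0847%, counting error only). There is no replicate of this pair.

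Untreated E518K clone 8 held 20 counts of the members in all: 10 of mmu-miR-370-3p, 8 of mmu-miR-341-3p and 2 of mmu-miR-673-3p. In the same clone mmu-miR-370-3p had 31.8 CPM untreated and 553 CPM induced, and mmu-miR-341-3p had 25.4 and 60.2 CPM. mmu-miR-337-5p, mmu-miR-665-3p and mmu-miR-540-3p had 0 counts untreated, and after induction 87.7, 78.5 and 63.5 CPM. These are at least 4.60-fold, 4.12-fold and 3.33-fold over the limit, without a replicate. Over the tested miRNAs the median log2 difference of this pair was 0.71. On the 2 untreated libraries the log2 ratio of mmu-miR-341-3p to mmu-miR-370-3p was -0.74 in wild type and -0.32 in E518K, the latter from 8 and 10 counts.

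The rest of the region gave a mixed picture. Of 13 other arms on the Meg3 and Rian side, 9 were tested in E518K against wild type: 7 were lower and 1 higher, with a median log2 fold change of -2.70. Of the 7, 2 are the miR-3544 arms, which repeat the counts of miR-337, and without them 5 of 7 tested arms were lower, with a median of -3.99. These 5 include mmu-miR-341-5p (-6.80) and mmu-miR-370-5p (-2.55), partner arms from the members' own hairpins. The remaining lower arms came from the miR-770 and miR-493 hairpins. mmu-miR-493-5p, whose hairpin lies between Mir673 and Mir337, had 321, 263 and 258 CPM in wild type and 22.9, 6.66 and 16.1 in E518K (log2 fold change -4.18, adjusted p = 1.75e-14, edgeR). The arm that was higher, mmu-miR-3070-5p, had 0 counts in wild type and 12 in E518K.

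Among 12 tested arms of the Rtl1-antisense group, which lies between Mir665 and Mir341, 3 were lower, 3 higher and 6 did not pass, with a median of -0.35. The miR-3071 arms repeat the counts of the miR-136 arms within 1.26%, and without them 2 of 10 tested arms were lower and 2 higher. Here mmu-miR-127-3p had 1290.9, 987.2 and 901.1 CPM in wild type and 1349.0, 666.3 and 1350.2 in E518K (log2 fold change 0.08, adjusted p = 0.85, edgeR). mmu-miR-434-5p had a log2 fold change of -0.60 (adjusted p = 0.15, edgeR). Of 56 tested arms in the miR-379/miR-410 cluster, 30 were lower, 9 higher and 17 did not pass, with a median of -1.57 (28, 9 and 17, with a median of -1.43, without the miR-299b arms, which repeat miR-299a). Its 2 most abundant arms in wild type differed, mmu-miR-379-5p at -5.52 and mmu-miR-541-5p at -0.33 (adjusted p = 0.43, edgeR). Arms that fell and arms that did not pass the test thus lay side by side along the region.

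**Figure D4:**
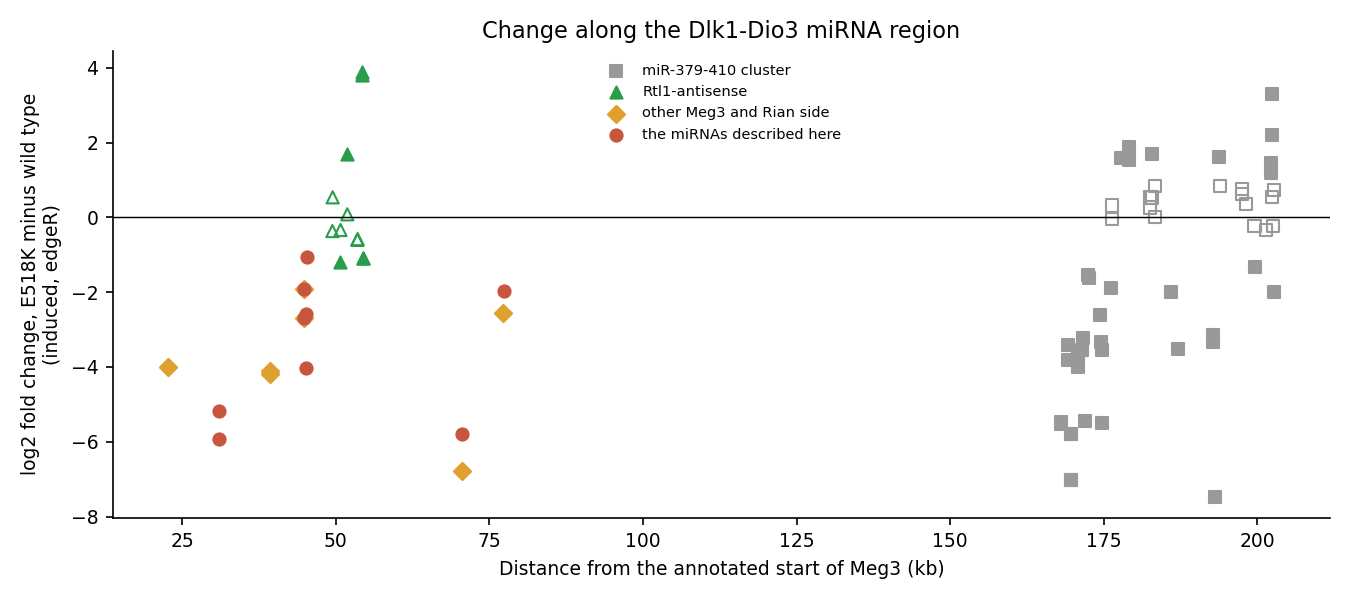
log2 fold change of induced E518K against induced wild type (edgeR) for the tested miRNAs of the region whose position was found by name, by distance in kb from the annotated start of Meg3. Filled symbols passed the adjusted threshold and open symbols did not; arms at 0 counts in either group are not drawn. The miRNAs described here lie between -5.94 and -1.07, and the Rtl1-antisense arms among them on both sides of 0.

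A sum within each library sets the members beside the neighbouring lists without scaling, again as a value chosen after seeing the data. It is not a contrast per member, since mmu-miR-341-3p and mmu-miR-370-3p make up most of the members' sum. The Rtl1-antisense list also moves, with 3 arms called lower and 3 called higher in E518K. The rises, at log2 fold changes of 1.69 to 3.89, were larger than the falls, at -1.19 to -1.09 (edgeR). A ratio to this list therefore also carries those rises. The members' counts were 1.04 to 1.09 times those of the Rtl1-antisense list in the 3 induced wild-type libraries and 0.0678 to 0.0897 times in the 3 induced E518K libraries. In untreated wild-type clone 10 the ratio was 0.0773, against 1.09 after induction of the same clone. There mmu-miR-127-3p was the higher untreated, with 8281 CPM against 1290.9 CPM induced. Against the miR-379/miR-410 cluster the members' ratio was 0.163 to 0.182 in induced wild type and 0.0250 to 0.0327 in induced E518K, and it was 0.0897 in untreated wild-type clone 10. With repeated arms left out, the ratio to the Rtl1-antisense list was 1.22 to 1.29 in induced wild type, 0.0853 to 0.111 in induced E518K. It was 0.0865 in clone 10 without doxycycline.

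Outside the members, the pattern most like their summed level over the 11 libraries, by Pearson's r of log2(CPM + 1) among 464 miRNAs, was that of mmu-miR-302a-5p (r = 0.989), then mmu-miR-30c-5p (r = 0.968) and mmu-miR-423-3p (r = 0.965). These correlations describe 11 libraries in 5 groups that share their depth order, and carry no test. mmu-miR-302a-5p averaged 1003 CPM in induced wild type, 83.1 in induced E518K, 6.04 in KO, 230 in the untreated wild-type library and 19.1 in that of untreated E518K.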

How the data were processed

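The authors deposited raw read counts of 1966 miRNAs in 11 libraries and the same table in a scaled RPM unit (pRPM), per the file headers. STAR, bedtools and GRCm38.p6 appear in the submitters' processing notes, while the sources used here do not state how strands were handled. The pRPM values equalled the counts times 1 constant per library (100% within 0.01 counts), and their totals were equal within a group. They served only as an alternative scale. Another file, labelled as piRNA, was identical to it and was not used.

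Counts were tested with edgeR 4.0.16 in R 4.3.3 (robust quasi-likelihood fit of 5 groups, TMM factors, and the filterByExpr rule at a count of 10 and a total of 15), with Benjamini-Hochberg adjustment over 730 miRNAs and a threshold of 0.05. SE is the log2 fold change divided by the root of F. The fit was run on simulated data with equal numbers of rises and falls, a setting unlike KO, where most calls were lower. That run does not test the scaling used here. Shares and ratios were compared with exact two-sided permutation tests. Hairpins were folded with RNAfold 2.7.2. Alternatives were total counts, scaling on 13 arms known not to need DGCR8, pRPM scaling, DESeq2 1.42.0, no filter, only the 2 groups and leaving out each library. The named miRNAs were the members, their partner arms and opposite hairpins, the 2 most abundant tested arms of each neighbouring list and the 3 most alike patterns. Members and lists were chosen with earlier results of these data known. Intervals cover counting error only.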

Additional observations from a re-analysis of the deposited data

How the results depend on the processing

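Of the 9 members lower in E518K than in induced wild type, 7 were called with total counts, 7 with DESeq2 and 8 with pRPM scaling. With only the 2 groups fitted 8 were called, with scaling on DGCR8-independent arms 9, without the filter 9, and with 1 library left out 6 to 8. Over all miRNAs tested, 216 of 730 were called lower with total counts, 239 of 715 with DESeq2 and 250 of 730 with pRPM scaling. With only the 2 groups 240 of 530 were called lower, with DGCR8-independent arms 498 of 730 and without the filter 281 of 1347. With 1 library left out, 164 to 233 were called lower, with 688 to 720 tested. KO against wild type gave 7 to 9, and E518K against KO 5 to 8. The calls over all miRNAs moved with the scale here too. In KO, 319 of 730 were lower than in wild type with total counts and 536 of 730 with DGCR8-independent arms. The 8 members higher in E518K than in KO came with DGCR8-independent arms, where 6.79% of all calls were lower. That share was 38.4% with TMM and 49.9% with total counts. No member's direction changed between E518K and wild type. The scale set the size: with DGCR8-independent arms the 9 values were -8.70 to -3.86 and the median of all tested miRNAs was -2.90, with 97.6% of all calls lower, against -0.14 and 55.6% with TMM and 0.21 and 48.8% with total counts. Without wild-type clone 16 that median was 0.73 and the members moved up too: mmu-miR-341-3p to -4.97, mmu-miR-370-3p to -1.21, mmu-miR-337-5p to -1.92, mmu-miR-540-3p to -1.75, mmu-miR-673-5p to -4.39 and mmu-miR-673-3p to -5.19, while mmu-miR-540-5p was not tested. mmu-miR-673-5p was -6.72 without E518K clone 13 and -4.59 without clone 15, and mmu-miR-540-5p was -7.13 without clone 15, which left E518K at 0 counts. The cause of these moves was not tested.

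The difference in 5p share of miR-665 ranged from -0.395 to 1.03 percentage points when 1 library was left out, and that of miR-337 from -5.04 to -0.42. The ratio of mmu-miR-665-3p to mmu-miR-370-3p differed by 0.41 to 1.57. The ratio of mmu-miR-337-3p to mmu-miR-370-3p changed sign without E518K clone 13 (-0.83) and without wild-type clone 12 (-0.10), and ranged from -0.83 to 0.92. The difference for mmu-miR-341-3p stayed between -4.01 and -3.43. No paired analysis was possible because the groups compared share no replicate numbers. At the depth of the KO libraries, levels under 12.8 to 18.3 CPM lay within what 0 counts allow.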
